A study of Homo sapiens with 24 samples.

Results

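The genes described here are CTNNB1, which encodes β-catenin, and 9 genes known as targets of WNT/β-catenin signalling: AXIN2, ASCL2, LGR5, RNF43, NKD1, NOTUM, LEF1, TCF7 and SP5. They were chosen by symbol, and all 10 were found. The count table, with 33113 genes, held 8 of them, and the second table, with 37967 genes, was the source for TCF7 and SP5. Of the 10 genes, 7 had more than 3 counts in all 24 samples. LEF1 had more than 3 counts in 7 samples, LGR5 in 5 and ASCL2 in 2.

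RNA was sequenced from HCT116 cells, a human colorectal cancer line, and from HCT116 oxpl-R cells, a derivative of it that survived repeated pulses of oxaliplatin at high dose. Both lines carried a doxycycline-inducible construct for adenovirus E1A, a viral protein that binds host transcriptional regulators. In each line 3 samples were untreated, 3 received 25 µM oxaliplatin for 24 h, 3 received 0.5 µg/mL doxycycline to induce E1A, and 3 received doxycycline 3 h before oxaliplatin. The resistant line is a single derivative with a heterogeneous, near-tetraploid karyotype, so a line difference cannot be told apart from other changes that arose during its selection. Doxycycline was not given without E1A, so the effects of drug and protein cannot be told apart, and the E1A transgene was not analysed here. The labels call the 3 samples of each group biological replicates, and the p-values measure the spread between them.

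In the WNT pathway, a destruction complex built on AXIN and APC marks β-catenin for degradation until a WNT ligand binds its receptors. Stabilised β-catenin then enters the nucleus and activates genes with TCF/LEF factors. Several targets are themselves negative regulators: AXIN2 is a scaffold of the destruction complex, RNF43 removes WNT receptors from the cell surface, NOTUM strips the lipid from WNT ligands, and NKD1 acts on Dishevelled. HCT116 cells are known for an activating CTNNB1 mutation that protects β-catenin from degradation, with APC intact. LGR5 and ASCL2 are known as stem cell genes of the intestinal crypt, LEF1 and TCF7 encode partners of β-catenin, and SP5 encodes a transcription factor induced by WNT.

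In GRCh38 all 10 genes are protein coding. AXIN2 (chr17:65528563-65561648), RNF43 (chr17:58353676-58417595) and NOTUM (chr17:81952507-81961840) lie on the minus strand of the long arm of chromosome 17. CTNNB1 lies at chr3:41194741-41260096, NKD1 at chr16:50548396-50649249, SP5 at chr2:170715337-170718078 and TCF7 at chr5:134114681-134151865, all on the plus strand. LGR5 lies at chr12:71439798-71586310 (plus strand), LEF1 at chr4:108047545-108168956 (minus strand) and ASCL2 at chr11:2268498-2270588 (minus strand).

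SP5 was the only one of the 10 genes whose response to oxaliplatin was called as different between the lines, and the 250 bases before its start are shown because they hold the letters known as the core of the TCF/LEF motif. The RefSeq promoter table (GRCh38.p14) matched 5 of the 10 genes, CTNNB1, RNF43, LEF1, TCF7 and SP5, with 7 starts. The letters CTTTGA were searched on both strands, so that TCAAAG counts as a match, and are in capitals below. CTTTGAT, a longer form that overlaps with it, was searched likewise.
SP5, chr2:170715087-170715336, plus strand: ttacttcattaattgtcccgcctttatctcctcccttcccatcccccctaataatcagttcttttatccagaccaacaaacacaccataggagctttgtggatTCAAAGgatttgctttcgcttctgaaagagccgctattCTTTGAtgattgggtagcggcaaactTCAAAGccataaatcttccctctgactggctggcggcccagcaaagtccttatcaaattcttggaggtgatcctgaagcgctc
The SP5 window held 3 matches, which began 147, 109 and 83 bases before the start, and the middle match was also the single CTTTGAT. The windows of the other 4 genes held no match. Of 35116 promoters of this length, 11.2% held at least 1 match to CTTTGA and 0.0655% held at least 3, while 2.26% held CTTTGAT. The SP5 window was picked for its matches, so these shares describe it and are not a test. A match is a run of letters and was not tested as a binding site. The part of these letters in the response of SP5 was not tested.

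Total counts per sample ranged from 24838095 to 37927720 in the count table and from 28004261 to 42613322 in the second table, which bounds precision mainly for SP5 (33 to 316 counts per sample) and NOTUM (101 to 1303). Correlations with the samples of the same group averaged 0.9888 or more for every sample. The 5 epithelial markers summed to between 5123 and 16323 normalised CPM. In HCT116 cells this sum was between 6141 and 6947 untreated and between 10674 and 12318 with oxaliplatin, where KRT8, KRT18 and KRT19 were called higher. In the resistant line it was between 7387 and 7975 untreated and between 11149 and 16323 with oxaliplatin, where KRT19 was called higher. With oxaliplatin added to doxycycline, KRT8, KRT18 and KRT19 were called higher in HCT116 cells and KRT19 in HCT116 oxpl-R cells. CDH1 was called lower in HCT116 oxpl-R than in HCT116 cells untreated (log2FC -0.41), with doxycycline (-0.50) and with both agents (-0.69). KRT19 was called higher between untreated lines (0.41) and lower with doxycycline in HCT116 cells (-0.31). The 3 leukocyte and 2 endothelial markers reached at most 0.876 and 0.646 in sum, and the 4 fibroblast markers summed to 14.0 to 53.3, with DCN and LUM at 3 counts or fewer in every sample. COL1A2, at 0 to 13.02 normalised CPM, was called in 4 comparisons. Its mean was higher in HCT116 oxpl-R than in HCT116 cells with doxycycline (1.48 against 0.116 normalised CPM) and with both agents (4.49 against 0.0917). Within the resistant line it was lower with oxaliplatin than untreated (0.0776 against 3.14) and higher with both agents than with oxaliplatin (4.49 against 0.0776). The COL1A2 groups overlapped in all of these comparisons except oxaliplatin against untreated. COL1A1 was called higher with doxycycline in HCT116 cells (27.5 against 20.3 normalised CPM). PECAM1 was called higher in HCT116 oxpl-R than in HCT116 cells with doxycycline (0.337 against 0.0233). The part of these markers in the results was not tested. Levels below are CPM (counts scaled to a common library size) after TMM normalization, called normalised CPM, and gene levels are not compared with each other because they are not per length. In bulk RNA, fewer cells that express a gene and less RNA per cell cannot be told apart. A gene is called where edgeR's adjusted p-value is below 0.05.

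Untreated HCT116 oxpl-R cells differed from untreated HCT116 cells in 4 of the 10 genes. AXIN2 and SP5 were higher and NOTUM and RNF43 were lower, so the target genes did not move together. LGR5 had no counts in these 6 samples and was not tested. Beside this count, 28.3% of 16715 genes of the count table and 24.1% of 19657 genes of the second table were called in the same comparison. Groups did not overlap for 5 of the 7 expressed genes, against 40.7% of all genes tested in the count table. Here and below, that share includes genes with few counts, so it is not a like comparison for expressed genes. No such share is given for the second table, the source of SP5 and TCF7.

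Among the feedback regulators, AXIN2 was at 26.7, 26.0 and 30.9 normalised CPM in untreated HCT116 cells and at 109.1, 107.5 and 85.8 in untreated HCT116 oxpl-R cells. The groups were far apart, with a 3.64-fold higher level in HCT116 oxpl-R cells (log2FC 1.87, SE 0.13, edgeR adjusted p = 4.38e-07). NOTUM moved the other way. It was at 26.6, 23.0 and 27.4 normalised CPM in HCT116 cells and at 6.18, 5.38 and 5.00 in HCT116 oxpl-R cells, a 4.62-fold lower level (log2FC -2.21, SE 0.16, edgeR adjusted p = 5.12e-07). RNF43 was at 162.2, 164.5 and 170.02 normalised CPM in HCT116 cells and at 111.6, 108.2 and 94.8 in HCT116 oxpl-R cells. That gap was smaller and again without overlap (log2FC -0.65, SE 0.11, edgeR adjusted p = 5.45e-04).

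NKD1 was at 14.9, 19.1 and 16.7 normalised CPM in HCT116 cells and at 15.1, 12.1 and 10.4 in HCT116 oxpl-R cells. The groups overlapped and the difference was not called (log2FC -0.42, SE 0.17, edgeR adjusted p = 0.0903). The transcription factor gene SP5 was at 1.75, 0.976 and 1.58 normalised CPM in HCT116 cells and at 4.603, 4.16 and 4.82 in HCT116 oxpl-R cells. Its level was 3.15-fold higher in the resistant line (log2FC 1.65, SE 0.30, edgeR adjusted p = 0.00120). TCF7 was at 44.05, 39.9 and 48.6 normalised CPM in HCT116 cells and at 53.0, 50.98 and 57.4 in HCT116 oxpl-R cells. It lay higher in all 3 resistant samples without being called (log2FC 0.28, SE 0.13, edgeR adjusted p = 0.136).

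CTNNB1 itself was at 343.0, 369.0 and 267.8 normalised CPM in untreated HCT116 cells and at 393.4, 334.7 and 422.2 in untreated HCT116 oxpl-R cells. These groups overlapped (log2FC 0.24, SE 0.14, edgeR adjusted p = 0.241). The 636 expressed genes of chromosome 3, on which CTNNB1 lies, had a median log2FC of 0.42 in the same comparison, against -0.02 over 11096 expressed genes. On chromosome 17, where AXIN2 rose and RNF43 and NOTUM fell, the median over 680 expressed genes was -0.16. The medians were -0.28 on chromosome 2, which holds SP5, -0.25 on chromosome 16, which holds NKD1, and 0.16 on chromosome 5, which holds TCF7. The part of these shifts in the results was not tested.

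The line comparison under each treatment asks whether the same genes separate the lines when the cells are exposed to oxaliplatin or E1A. These comparisons use separate samples of both lines. AXIN2 was called higher, and NOTUM and RNF43 were called lower, in HCT116 oxpl-R cells in each of the 4 conditions. The numbers of genes called were 3 of 10 with doxycycline, 4 with oxaliplatin and 5 with both, where 17.7%, 20.7% and 18.5% of genes of the count table and 15.9%, 21.5% and 14.4% of genes of the second table were called. The median log2FC over all genes tested was 0.15 with doxycycline, 0.04 with oxaliplatin and 0.11 with both.

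AXIN2 was 2.42-fold higher in HCT116 oxpl-R cells with doxycycline (log2FC 1.27, SE 0.14), 2.36-fold higher with oxaliplatin (log2FC 1.24, SE 0.25) and 1.70-fold higher with both (log2FC 0.77, SE 0.21, edgeR adjusted p = 0.0203). With both agents it was at 41.7, 31.9 and 37.2 normalised CPM in HCT116 cells and at 68.1, 69.5 and 51.03 in HCT116 oxpl-R cells. The groups stayed apart, with the smallest gap of the 4 conditions. That call was lost without HCT116 replicate 2 (edgeR adjusted p = 0.111) or 3 (0.0503) and without HCT116 oxpl-R replicate 1 (0.0816) or 2 (0.111) of the group given both. Ordered by mean over the 8 groups, AXIN2 ran from untreated HCT116 cells (27.9 ± 2.63, SD, n = 3) to untreated HCT116 oxpl-R cells (100.8 ± 13.003, SD, n = 3). Only the step between the 2 lines, from HCT116 with doxycycline (40.9 ± 2.18, SD, n = 3) to HCT116 oxpl-R with both agents (62.9 ± 10.3, SD, n = 3), separated neighbours without overlap.

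NOTUM with oxaliplatin was at 46.7, 36.8 and 40.9 normalised CPM in HCT116 cells and at 7.10, 6.96 and 4.05 in HCT116 oxpl-R cells. This 7.32-fold lower level was its widest gap (log2FC -2.87, SE 0.30, edgeR adjusted p = 3.21e-05). With doxycycline it was 3.69-fold lower (log2FC -1.89, SE 0.24) and with both 3.24-fold lower (log2FC -1.70, SE 0.27). All 12 HCT116 oxpl-R samples had less NOTUM than any HCT116 sample: the highest resistant sample was at 19.0 normalised CPM and the lowest parental one at 23.0.

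RNF43 was 1.53-fold lower with doxycycline (log2FC -0.62, SE 0.13), 1.57-fold lower with oxaliplatin (log2FC -0.65, SE 0.21, edgeR adjusted p = 0.0394) and 2.11-fold lower with both (log2FC -1.08, SE 0.21, edgeR adjusted p = 0.00231). With both agents the samples were at 142.2, 127.2 and 114.3 normalised CPM in HCT116 cells and at 66.6, 68.9 and 46.5 in HCT116 oxpl-R cells. Over all conditions the highest resistant sample was at 111.6 and the lowest parental one at 114.3. Under oxaliplatin the call was lost with the replicate number as a block (edgeR adjusted p = 0.0586), with RLE size factors (0.0580), and without HCT116 replicate 1 (0.141), 2 (0.182) or 3 (0.0633) or HCT116 oxpl-R replicate 2 (0.136) or 3 (0.113) of the oxaliplatin groups. With doxycycline it was lost without HCT116 replicate 2 (edgeR adjusted p = 0.0672).

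CTNNB1 was called in the line comparisons with oxaliplatin. Given oxaliplatin alone, HCT116 cells had 110.5, 158.8 and 246.2 normalised CPM, a wide spread, and HCT116 oxpl-R cells had 443.5, 350.8 and 433.1. The resistant samples were all higher (log2FC 1.17, SE 0.29, edgeR adjusted p = 0.0118). Given both agents, HCT116 cells had 159.8, 203.7 and 204.3 normalised CPM and HCT116 oxpl-R cells had 309.6, 357.5 and 367.7, again without overlap (log2FC 0.87, SE 0.19, edgeR adjusted p = 0.00524). The median log2FC of expressed chromosome 3 genes was 0.61 in both of these comparisons, and with doxycycline alone it was 0.52, where CTNNB1 was not called (log2FC 0.36, SE 0.20, edgeR adjusted p = 0.256).

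SP5 was called between the untreated lines and in no other line comparison. Its log2FC was 0.70 (SE 0.28, edgeR adjusted p = 0.111) with doxycycline, -0.58 (SE 0.34, edgeR adjusted p = 0.273) with oxaliplatin and 0.16 (SE 0.29, edgeR adjusted p = 0.741) with both. TCF7 gave 0.15 (SE 0.17), -0.28 (SE 0.23) and 0.42 (SE 0.20) in the same order and was not called. NKD1 was lower in all resistant samples under oxaliplatin, at 13.6, 12.5 and 10.5 normalised CPM against 18.2, 16.5 and 25.8. This was not called (log2FC -0.81, SE 0.28, edgeR adjusted p = 0.0582), but was with the replicate number as a block (edgeR adjusted p = 0.0371).

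**Figure D1:**
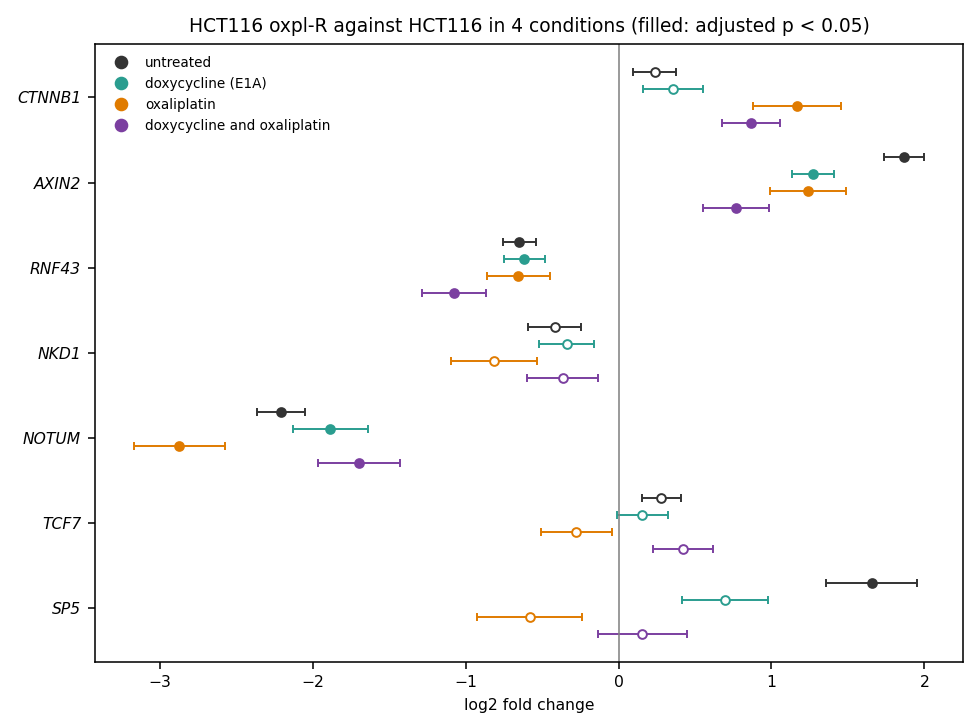
Log2 fold change of HCT116 oxpl-R against HCT116 cells (horizontal axis, positive where the resistant line was higher) for the 7 expressed genes in 4 conditions. Bars are standard errors and filled points have an edgeR adjusted p below 0.05. AXIN2 lay to the right of 0 and NOTUM and RNF43 to the left in every condition, while SP5 went from 1.65 untreated to -0.58 with oxaliplatin.

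Oxaliplatin changed 3 of the 10 genes in HCT116 cells and none that passed the test in HCT116 oxpl-R cells. In HCT116 cells, 23.3% of genes of the count table and 21.1% of the second table were called, and in HCT116 oxpl-R cells 4.12% and 4.28%. Both treatment comparisons of a line use the same untreated samples as the line comparison above. For HCT116 oxpl-R cells the edgeR count of 0 stood beside 1 gene, AXIN2, with an unadjusted p below 0.05, and DESeq2 also called 0.

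SP5 rose 3.37-fold in HCT116 cells, from 1.75, 0.976 and 1.58 normalised CPM to 5.43, 4.28 and 4.42 (log2FC 1.75, SE 0.32, edgeR adjusted p = 0.00499). Oxaliplatin-treated HCT116 oxpl-R cells were at 4.00, 2.52 and 3.04, below all 3 untreated samples of that line, a difference that was not called (log2FC -0.50, SE 0.29, edgeR adjusted p = 0.432). The responses of the lines differed by -2.21 on the log2 scale (SE 0.44, edgeR adjusted p = 0.0110, resistant minus parental). No other gene of the 10 was called in this test of the difference, where 2.44% of genes of the count table and 3.17% of the second table were called.

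NOTUM rose 1.70-fold in HCT116 cells with oxaliplatin (log2FC 0.77, SE 0.16, edgeR adjusted p = 0.00862), and all 3 treated samples lay above the untreated ones. The call was lost without untreated HCT116 replicate 2 (edgeR adjusted p = 0.0645). NOTUM in HCT116 oxpl-R cells gave a log2FC of 0.13 (SE 0.27). The difference between the lines was -0.62 (SE 0.32, edgeR adjusted p = 0.357).

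CTNNB1 fell in HCT116 cells with oxaliplatin, with all 3 treated samples below the untreated ones (log2FC -0.85, SE 0.26, edgeR adjusted p = 0.0406). The highest treated sample, at 246.2 normalised CPM, was close to the lowest untreated one, at 267.8. The call was lost with the filterByExpr filter (edgeR adjusted p = 0.0550) and with the replicate number as a block (0.103). It was also lost without untreated replicate 1 (0.118), 2 (0.139) or 3 (0.0801), and without oxaliplatin replicate 1 (0.0779) or 2 (0.0975). For HCT116 oxpl-R cells the log2FC was 0.10 (SE 0.20), and the difference between the lines was 0.96 (SE 0.34, unadjusted p = 0.0108 in edgeR's fit over all genes, adjusted p = 0.149).

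AXIN2, RNF43, NKD1 and TCF7 were not called with oxaliplatin in either line. AXIN2 gave a log2FC of 0.13 (SE 0.17) in HCT116 cells and of -0.46 (SE 0.21, edgeR adjusted p = 0.309) in HCT116 oxpl-R cells, where the treated samples ranged from 54.7 to 91.5 normalised CPM. For NKD1 the log2FC was 0.33 (SE 0.21) in HCT116 cells and -0.04 (SE 0.23) in HCT116 oxpl-R cells. RNF43 gave -0.13 (SE 0.13) and -0.11 (SE 0.18), and TCF7 gave 0.34 (SE 0.16) and -0.23 (SE 0.20).

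Induction of E1A with doxycycline changed 6 of the 10 genes in HCT116 cells, where 9.5% of genes of the count table and 5.22% of the second table were called. AXIN2, NKD1, NOTUM, TCF7 and SP5 rose and RNF43 fell. Over the genes tested in the list of 10, the median log2FC was 0.55, against 0.01 over all genes of the count table. Groups did not overlap for 6 of the 7 expressed genes, against 22.3% of all genes tested in the count table, genes with few counts included.

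With doxycycline AXIN2 was at 41.3, 42.8 and 38.5 normalised CPM, above all untreated HCT116 samples (log2FC 0.51, SE 0.11, edgeR adjusted p = 0.00618). NOTUM was at 41.7, 42.9 and 35.3 (log2FC 0.59, SE 0.12, edgeR adjusted p = 0.00316). SP5 rose 2.57-fold, to 3.51, 4.03 and 3.39 (log2FC 1.36, SE 0.30, edgeR adjusted p = 0.0114). These 3 genes encode a scaffold of the destruction complex, a WNT deacylase and a transcription factor. NKD1 was at 27.2, 28.9 and 23.0 (log2FC 0.60, SE 0.13, edgeR adjusted p = 0.00643), and TCF7 at 65.3, 62.7 and 55.5 (log2FC 0.49, SE 0.12, edgeR adjusted p = 0.0182). RNF43 fell to 119.8, 130.5 and 123.6 normalised CPM (log2FC -0.45, SE 0.09, edgeR adjusted p = 0.00374). CTNNB1 gave a log2FC of -0.36 (SE 0.12, edgeR adjusted p = 0.0529) with overlapping groups. Without untreated replicate 1 the calls of AXIN2 (edgeR adjusted p = 0.0695), NKD1 (0.0894) and TCF7 (0.0857) were lost. Without untreated replicate 2 those of TCF7 (0.128) and SP5 (0.0520) were lost, and without doxycycline replicate 1 that of TCF7 (0.0643). With all 24 samples in the fit 1 call was left, that of SP5. With the replicate number as a block 0 were left, where same-numbered samples did not deviate together (r = -0.164, -0.144 and -0.227).

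In HCT116 oxpl-R cells doxycycline changed none of the 10 genes past the threshold of edgeR, with 5 at an unadjusted p below 0.05 (RNF43, NOTUM, NKD1, TCF7 and LGR5) and 0 called by DESeq2. In this comparison 0.0755% of genes of the count table and 0.0593% of the second table were called. Log2FC values stood at 0.86 (SE 0.26) for NOTUM, 0.62 (SE 0.19) for NKD1, 0.37 (SE 0.15) for TCF7 and -0.47 (SE 0.13) for RNF43. For these 4 genes the groups did not overlap, against 11.1% of all genes tested in the count table, genes with few counts included. AXIN2, at 101.7, 91.9 and 81.6 normalised CPM with doxycycline, overlapped with the untreated samples (log2FC -0.13, SE 0.14).

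No response to doxycycline was called as different between the lines by edgeR or DESeq2, with 2 genes at an unadjusted p below 0.05, AXIN2 (log2 difference -0.67, SE 0.19) and SP5 (log2 difference -0.94, SE 0.38). In this test 0.0164% of genes of the count table and 0.00466% of the second table were called. An effect past the threshold in HCT116 cells and not in HCT116 oxpl-R cells is therefore not shown to differ between them.

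**Figure D2:**
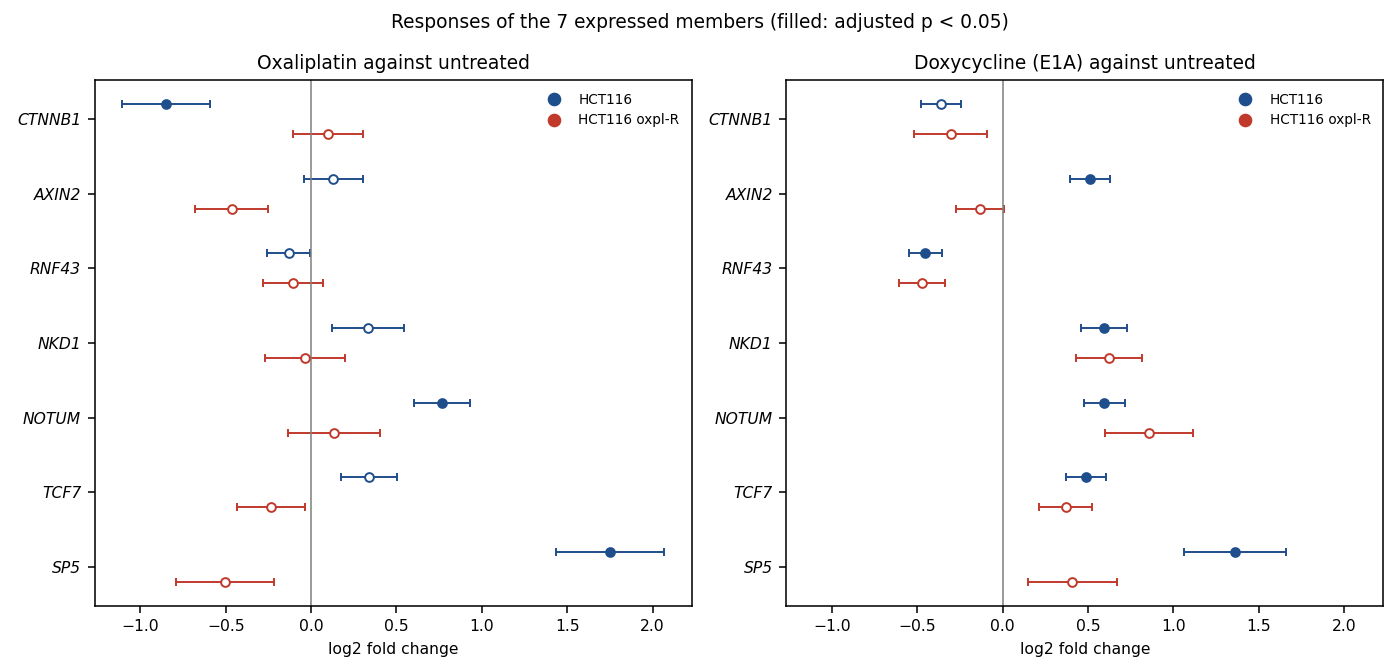
Log2 fold change against untreated cells (horizontal axis) for the 7 expressed genes with oxaliplatin (left) and with doxycycline (right), in HCT116 cells (blue) and HCT116 oxpl-R cells (red). Bars are standard errors and filled points have an edgeR adjusted p below 0.05. With oxaliplatin SP5 lay at 1.75 in HCT116 and -0.50 in HCT116 oxpl-R cells, and with doxycycline NKD1, NOTUM, TCF7 and RNF43 lay on the same side of 0 in both lines.

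The combined treatment was compared with each single treatment to ask what the second agent adds. No gene of the 10 was called by edgeR or DESeq2 in these 4 comparisons. For oxaliplatin added to doxycycline, 10.0% of genes of the count table and 7.63% of the second table were called in HCT116 cells, and 2 of the 10 genes, CTNNB1 (log2FC -0.40, SE 0.16) and SP5 (log2FC 0.54, SE 0.24), had an unadjusted p below 0.05. In HCT116 oxpl-R cells 2.06% and 1.96% of genes were called, and AXIN2 was the only one of the 10 below 0.05 unadjusted. AXIN2 samples with both agents, at 68.1, 69.5 and 51.03 normalised CPM, lay below those with doxycycline alone (log2FC -0.58, SE 0.19, edgeR adjusted p = 0.164). It was called with the replicate number as a block (log2FC -0.59, edgeR adjusted p = 0.00817).

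For doxycycline added to oxaliplatin, 0.0246% of genes of the count table and 0.0209% of the second table were called in HCT116 cells, and 0 of the 10 genes had an unadjusted p below 0.05. In HCT116 oxpl-R cells 0.638% and 0.634% were called, and 4 of the 10 genes had an unadjusted p below 0.05. NOTUM was at 13.3, 8.68 and 19.0 normalised CPM with both agents, above the 7.10, 6.96 and 4.05 with oxaliplatin alone (log2FC 1.18, SE 0.32, edgeR adjusted p = 0.116). RNF43 gave a log2FC of -0.67 (SE 0.22), SP5 of 0.95 (SE 0.32) and TCF7 of 0.58 (SE 0.22), each without overlap between groups. With NKD1, 5 of the 7 expressed genes did not overlap here, against 12.6% of all genes tested in the count table, genes with few counts included.

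The test of whether the response to oxaliplatin differed with and without doxycycline called 0 of the 10 genes in either line by edgeR or DESeq2, with 0.0% of genes of the count table called in both lines. Among length-scaled counts the shares were 0.0% for the parental and 0.00464% for the resistant line. In HCT116 cells SP5 (log2 difference -1.12, SE 0.39), TCF7 (-0.58, SE 0.23) and NOTUM (-0.52, SE 0.22) had an unadjusted p below 0.05. Among HCT116 oxpl-R samples 0 of the 10 genes did.

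The stem cell genes and LEF1 were close to the limit of detection. A count of 0 allows up to 3 counts in a sample, and this covers counting error only. LEF1 had 1, 0 and 0 counts in untreated HCT116 cells and at most 2 in any HCT116 sample. In HCT116 oxpl-R cells it had 11, 2 and 2 counts untreated, 6, 1 and 0 with doxycycline, 4, 1 and 9 with oxaliplatin and 9, 11 and 15 with both. Only with both agents did all 3 resistant samples exceed 3 counts. Against 3 counts per sample, LEF1 was then at least 3.30-fold higher than in HCT116 cells (edgeR adjusted p = 0.0207). The call was lost in the second table (edgeR adjusted p = 0.0576), without HCT116 replicate 2 (0.0602) or 3 (0.0533) and without HCT116 oxpl-R replicate 2 (0.0721) or 3 (0.0641) of that group.

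LGR5 had 0 counts in all 6 untreated samples. With doxycycline it had 8, 4 and 2 counts in HCT116 cells and 0, 7 and 5 in HCT116 oxpl-R cells, and with both agents 1, 1 and 0 and 2, 2 and 7. With oxaliplatin alone 5 of 6 samples had 0 counts and the other had 1. These counts were not called in any comparison. ASCL2 had 0 counts in 17 of 24 samples and at most 5, and was not called.

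NKD1 differed more between the deposited tables than the other 4 expressed genes that both hold. The ratio of its length-scaled count to its count ranged from 0.435 to 2.82 between samples, a 6.49-fold range. Of the 7672 genes with over 100 counts in every sample, 0.0912% had a wider range and the median was 1.30-fold. In the same terms CTNNB1 had a range of 1.11-fold, RNF43 of 1.18-fold, AXIN2 of 1.24-fold and NOTUM of 1.62-fold. The 3 untreated HCT116 oxpl-R samples had ratios of 1.202, 0.435 and 2.82, so the tables disagree most within that group.

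Read from the second table, NKD1 was at 5.83, 7.36 and 10.7 normalised CPM in untreated HCT116 cells and at 16.3, 4.64 and 26.9 in untreated HCT116 oxpl-R cells. The direction of the line difference turned (log2FC 0.99, SE 0.44, edgeR adjusted p = 0.123). With oxaliplatin HCT116 cells had 39.1, 22.3 and 24.0 normalised CPM, a called rise in this table (log2FC 1.87, edgeR adjusted p = 0.00276), and were then above the HCT116 oxpl-R cells (log2FC -1.07, SE 0.34, edgeR adjusted p = 0.0421). The rise with doxycycline in HCT116 cells had a log2FC of 1.65 (edgeR adjusted p = 2.79e-04) there against 0.60 in the count table. No such turn was found for AXIN2, NOTUM, RNF43 or CTNNB1 in the line comparisons or the comparisons of 1 agent with untreated cells.

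**Figure D3:**
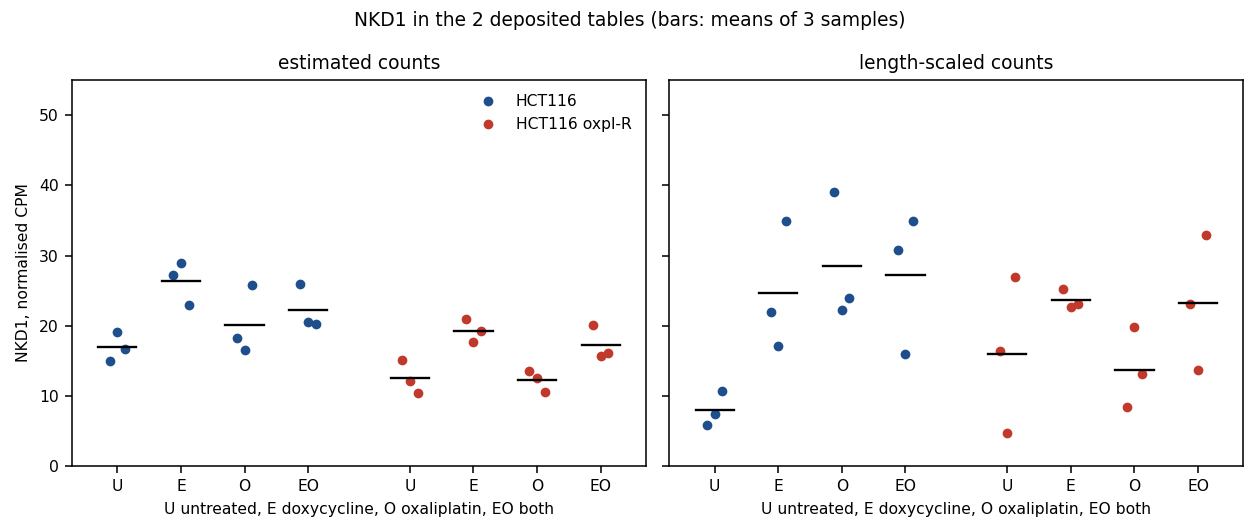
NKD1 in all 24 samples from the estimated counts (left) and from the length-scaled counts (right), in normalised CPM, for HCT116 cells (blue) and HCT116 oxpl-R cells (red). Points are samples and bars are means of 3 samples. Untreated HCT116 oxpl-R samples span 10.4 to 15.1 on the left and 4.64 to 26.9 on the right.

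The other genes of the pathway were described by list. Between untreated lines, the nuclear cofactors and TCF factors had 10 of 16 tested genes called lower in HCT116 oxpl-R cells and 1 higher. Their median log2FC was -0.47 against 0.08 over all genes of the count table, where 14.2% were called lower and 14.1% higher. In the second table, the source of some of the listed genes, the median over all genes was 0.10 and 24.1% were called. No share by direction is given for it. TCF7L2, the main TCF factor of colon epithelium, gave -1.56 (SE 0.12), the corepressor gene TLE3 gave -1.43 (SE 0.17) and TCF7L1 gave -1.32 (SE 0.19), all in the second table. In this list 8 of 16 genes were lower with doxycycline, 7 with oxaliplatin and 6 with both, against 7.1%, 10.9% and 8.39% of genes of the count table. Those higher were 2, 0 and 0 by edgeR, against 10.6%, 9.77% and 10.1%. TCF7L2 was called lower in each of the 4 conditions, at 57.0 normalised CPM on average in untreated HCT116 oxpl-R cells and 168.1 in untreated HCT116 cells. The paper reports a chromosome arm deletion that arose in the resistant line, with downregulated genes enriched towards the end of that arm. Positions of TCF7L2 and the other listed genes, here and below, are not given. The part of this deletion in their levels was not tested.

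In the destruction complex and its regulators, 4 of 16 genes were lower and 0 higher between untreated lines, against 14.2% and 14.1% of genes of the count table. They included the scaffold gene AXIN1 (log2FC -0.71, SE 0.13), whose product AXIN2 resembles, the ubiquitin ligase gene BTRC (-0.70, SE 0.13) and the phosphatase scaffold gene PPP2R1A (-0.67, SE 0.11). AXIN1 stood at 29.6 normalised CPM on average in HCT116 oxpl-R cells and at 48.7 in HCT116 cells. Among receptors and co-receptors, 4 of 16 were higher and 2 lower, against the same shares. ROR1, a receptor for WNT5A, was higher (log2FC 1.59, SE 0.15), LGR4, a receptor for R-spondins, was lower (-1.20, SE 0.16), and FZD9 was higher (0.75, SE 0.24). ROR1 was called higher in all 4 conditions.

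Among secreted antagonists and Kremen receptors, 2 of 10 were higher and 2 lower between untreated lines, close to the 14.1% and 14.2% of genes of the count table. DKK1, a secreted inhibitor of the LRP co-receptors and itself a known WNT target, was at 994.5 normalised CPM on average in HCT116 oxpl-R cells and at 391.6 in HCT116 cells (log2FC 1.35, SE 0.17), and was called higher in all 4 conditions. KREMEN2, a DKK receptor, was lower (log2FC -1.22, SE 0.15). DKK3 was called higher at a mean of 0.767 against 0.0560 normalised CPM. The 5 genes tested for ligand secretion and R-spondins were not called, and the WNT ligand genes were not analysed here.

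Of 18 other WNT target genes tested between untreated lines, 3 were higher and 4 lower, close to the 14.1% and 14.2% of genes of the count table, with a median log2FC of -0.04. ETS2 (log2FC -1.18, SE 0.11) and SOX4 (-0.81, SE 0.15) were lower and EPHB3 (0.87, SE 0.14) was higher. With oxaliplatin in both lines, 1 of 19 was higher in HCT116 oxpl-R cells, CCND1, which encodes cyclin D1 (log2FC 1.51, SE 0.24). The 2 lower were ETS2 (-1.42, SE 0.21) and PPARD (-0.87, SE 0.21), where 9.77% of genes of the count table were higher and 10.9% lower. With doxycycline 0 of 19 were higher and 4 lower, where 10.6% of genes of the count table were higher and 7.1% lower. Among these 4 were ETS2 (log2FC -0.90, SE 0.14), MYC (-0.87, SE 0.16) and SOX4 (-0.77, SE 0.17).

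In HCT116 cells oxaliplatin raised 2 of 19 other target genes and lowered 1, where 13.1% of genes of the count table rose and 10.2% fell. EPHB3, an ephrin receptor gene, rose (log2FC 1.47, SE 0.16), SOX9 rose (0.63, SE 0.13) and SOX4 fell (-0.61, SE 0.11). Of 16 receptors 2 rose and 5 fell, among them ROR1 (log2FC -1.10, SE 0.27), FZD3 (-1.05, SE 0.25) and FZD6 (-0.96, SE 0.22). PORCN, which lipidates WNT ligands, rose in HCT116 cells (log2FC 1.26, SE 0.17) and in HCT116 oxpl-R cells (1.13, SE 0.22). KREMEN2 also rose in both lines, by 1.213 (SE 0.17) and 1.197 (SE 0.25) on the log2 scale.

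With doxycycline in HCT116 cells, 6 of 18 other target genes fell and 1 rose, where 6.59% of genes of the count table fell and 2.91% rose. BMP4 (log2FC -0.55, SE 0.10), CD44 (-0.42, SE 0.11) and MYC (-0.41, SE 0.10) fell. DKK1 (log2FC -0.74, SE 0.12) and LGR4 (-0.67, SE 0.14) fell and FZD9 (1.19, SE 0.22) rose. The 5 members that rose with doxycycline thus stood beside a list of other targets in which more genes fell.

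Over the 24 samples, the genes whose log2(CPM + 1) was most like that of AXIN2 were HOXB9 (Pearson r = 0.955), PAPSS2 (0.950), NRP2 (0.943), ANO1 (0.942) and GLIS3 (0.939), among 11096 genes. These values are a description: the samples fall into 2 lines, and all 5 genes were higher in untreated HCT116 oxpl-R cells. With each line centred on its own mean, r for HOXB9 was 0.744 and none of the 5 remained among the 5 highest. On the pooled scale r with AXIN2 was 0.549 for CTNNB1, -0.403 for NKD1, -0.644 for RNF43 and -0.830 for NOTUM, and within lines -0.122, 0.418, 0.295 and -0.046.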

How the data were processed

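RNA-seq libraries of 24 samples (8 groups of 3) were compared. The authors trimmed reads with Trimmomatic, quantified them with Salmon 1.6.0 on GENCODE transcripts of GRCh38 and obtained gene-level values with tximport. Unnormalized estimated counts were deposited, of which 15.9% to 30.4% per sample were not whole and all were rounded. A second deposited table, named as TPM, sums to far more than TPM would and follows the counts, so it was read as length-scaled estimated counts, unlike the unit planned for. It gave genes after SETP6, the last gene of the count table used here. Genes after TSC22D3 were not analysed here.

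Genes not at 0 throughout a comparison were tested in R 4.3.3 with edgeR 4.0.16 (TMM, quasi-likelihood test, Benjamini-Hochberg adjustment over all genes of that table), with 6 samples per pairwise comparison and interaction terms over 12. Scripts were tested on simulated data. RLE size factors, DESeq2 1.42.0, filterByExpr, all 24 samples, the replicate block, left-out samples and the second table were alternatives. Replicate numbers are in the labels only as numbers. Same-numbered samples deviated together in all 3 pairs for oxaliplatin between lines (r = 0.141, 0.188 and 0.253) and for oxaliplatin added to doxycycline in HCT116 oxpl-R cells (0.419, 0.480 and 0.529). Positions come from GENCODE on GRCh38, matched by symbol. Tables used Python 3.11.15, pandas 2.3.3, numpy 2.4.6 and matplotlib 3.10.9.

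The 10 genes and the gene lists were chosen with earlier results of these data known. By rule, all 10 were described, each list by its counts and up to 3 called genes with the largest change per comparison, and the 5 genes with the highest correlation with AXIN2 among those with at least 10 counts on average. Not every gene that the rule allows is named.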

Additional observations from a re-analysis of the deposited data

Results flagged for a closer look

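SP5 was the 1 gene of the 10 whose response differed between the lines by a test of the difference itself. The log2FC with oxaliplatin in HCT116 oxpl-R cells minus that in HCT116 cells was -2.21 (SE 0.44, edgeR adjusted p = 0.0110). In HCT116 cells all 3 treated samples lay above the separate untreated samples. In HCT116 oxpl-R cells all 3 lay below the untreated samples of that line, a difference that was not called. Every call of SP5 used the same 3 untreated HCT116 samples, with 59, 33 and 51 counts, and SP5 was not called in a comparison without them. SP5 was read from the length-scaled counts only.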

How the results depend on the processing

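Of 26 called values, 26 kept their call and direction with DESeq2, 25 with RLE size factors, 24 of 25 with filterByExpr, 21 with all 24 samples in the fit, 18 with the replicate block and 20 of 21 in the second table. Of 162 values with a sample left out, 136 kept theirs, and none of these alternatives reversed a called value. The 6 members called with doxycycline in HCT116 cells became 1 with all 24 samples and 0 with the replicate block. There the same-numbered samples did not deviate together (r = -0.164, -0.144 and -0.227), and CTNNB1 with oxaliplatin in HCT116 cells also lost its call under the block (edgeR adjusted p = 0.103). With doxycycline added to oxaliplatin in HCT116 oxpl-R cells, 0 became 2 with all 24 samples. With oxaliplatin added to doxycycline in that line, 0 became 1 with the replicate block. Apart from these and from RNF43 and NKD1 between lines under oxaliplatin, the block changed no call. Without a sample, the members called ranged from 3 to 7 with doxycycline in HCT116 cells, 1 to 4 with oxaliplatin in HCT116 cells, 0 to 2 with oxaliplatin added to doxycycline there, 0 to 1 with doxycycline added to oxaliplatin in HCT116 oxpl-R cells, 3 to 5 between lines with both agents and 1 to 2 in the line difference of the oxaliplatin response. NKD1 turned in the second table between untreated lines (log2FC 0.99). With oxaliplatin in HCT116 oxpl-R cells, uncalled values turned without a sample for CTNNB1 (-0.0072 to 0.21), NKD1 (-0.16 to 0.13) and NOTUM (-0.0098 to 0.31). The cause was not tested. Depth limits LEF1, LGR5 and ASCL2.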
